A study of Mus musculus with 10 samples.

Results

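Rab genes encode the small GTPases that mark the membranes of the endocytic and secretory pathways. Their transcripts were followed through phagocytes of the mouse Peyer's patch and CD115hi cells of the blood. Members were chosen by name alone: Rab, a number, and at most a letter and a digit. This gave 59 of the 32285 genes in the count matrices, of which 44 had enough counts to be tested. A Rab protein cycles between a GDP-bound form held in the cytosol and a GTP-bound form on a membrane. Exchange factors load GTP, GTPase-activating proteins end the active state, and effectors bound by the active form carry out tethering, transport along the cytoskeleton and fusion. In phagocytes, successive Rab proteins accompany a vesicle from the early endosome or phagosome to the lysosome, and others serve recycling, lysosome-related organelles and secretion.

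Droplet 3′ RNA sequencing counted unique molecular identifiers (UMIs) in single cells that carried hashtags, DNA-barcoded antibodies that mark the sorted population. LysoDCs are lysozyme-expressing, monocyte-derived phagocytes of the Peyer's patch, and cDC2s are conventional dendritic cells of the same tissue. Dataset 1 held follicular, immature, intermediate and mature LysoDCs, immature and maturing cDC2s, Ly6C+ monocytes, CD43+ monocytes and CD115hi blood cells negative for Ly6C and CD43 (DN blood cells). Dataset 2 held LysoDCs, Ly6C+ and CD43+ monocytes, and CCR2+ and CCR2- DN blood cells. The CCR2+ and CCR2- cells came from separate libraries but shared a hashtag, so the DN sum of dataset 2 mixes them. All mice were female C57BL/6Rj with no engineered allele named. Peyer's patch cells came from pools of 30 and 20 untreated mice and were enriched for CD11c before sorting. Blood came from pools of 20 and 18 mice that had received clodronate liposomes 9 days earlier, so tissue and treatment cannot be told apart between Peyer's patch and blood. The 4 LysoDC hashtags of dataset 2 were not tied to subsets and were summed. Hashtags were added after sorting in dataset 1 and before sorting in dataset 2.

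Counts were summed over the cells of each population and dataset, which gave 13 sums of 262 to 4971 cells and 2043004 to 28778760 UMIs. Levels are given as CPM, the gene's UMIs scaled to a common total per sum. A 3′ UMI count is a count of molecules and was not divided by transcript length. In dataset 2 the CD43+, Ly6C+ and DN blood cells came from different libraries, so a difference between them includes any between libraries there. In a sum, fewer expressing cells and less RNA per cell cannot be told apart. The LysoDC markers C1qa, C1qb and C1qc were at 2653 to 10362 CPM in the LysoDC sums. They were at 133 to 532 CPM in the blood sums of dataset 1 and at 17.1 to 84.3 CPM in those of dataset 2. The 6 Ly6C+ monocyte markers summed to 4430 and 3646 CPM in Ly6C+ monocytes, and the 7 CD43+ monocyte markers to 3769 and 4206 CPM in CD43+ monocytes. The 5 B cell markers summed to 190 to 283 CPM in the LysoDC sums and to 20.6 to 54.7 CPM in blood. The part of B cell RNA in the Rab values was not tested. The 8 cDC2 markers, none at 0, summed to 1189 and 1636 CPM in DN blood cells and to 652 and 613 CPM in immature and maturing cDC2s. Most of the DN sum came from Cd209a, at 511 and 747 CPM, and Clec10a, at 436 and 597 CPM. The sums therefore do not rank DN blood cells and cDC2s by their likeness to cDC2s.

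Rab transcripts together made up a similar share of each population. They came to 2914 and 2913 CPM in CD43+ monocytes, 2478 and 2416 CPM in Ly6C+ monocytes, and 2138 and 2021 CPM in DN blood cells. The LysoDC sums lay between 2264 and 2334 CPM, and the cDC2 sums at 2433 CPM (immature) and 2342 CPM (maturing). On this scale CD43+ monocytes were highest and DN blood cells lowest in both datasets. With the TMM factors used in the tests, DN blood cells were still lowest (2105 and 2189), but CD43+ monocytes (2547 and 2604) no longer stood above LysoDCs in dataset 1 (2553) and were next to Ly6C+ monocytes in dataset 2 (2596). Of the 59 members, 22 reached 20 CPM in all 13 sums and 32 in at least 1. Another 18 stayed under 5 CPM in every sum, and 2 of these, Rab15 and Rab9b, had no UMI. In every sum the most abundant member was Rab14, which acts between Golgi, endosomes and phagosomes, at 231 to 332 CPM.

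**Figure D1:**
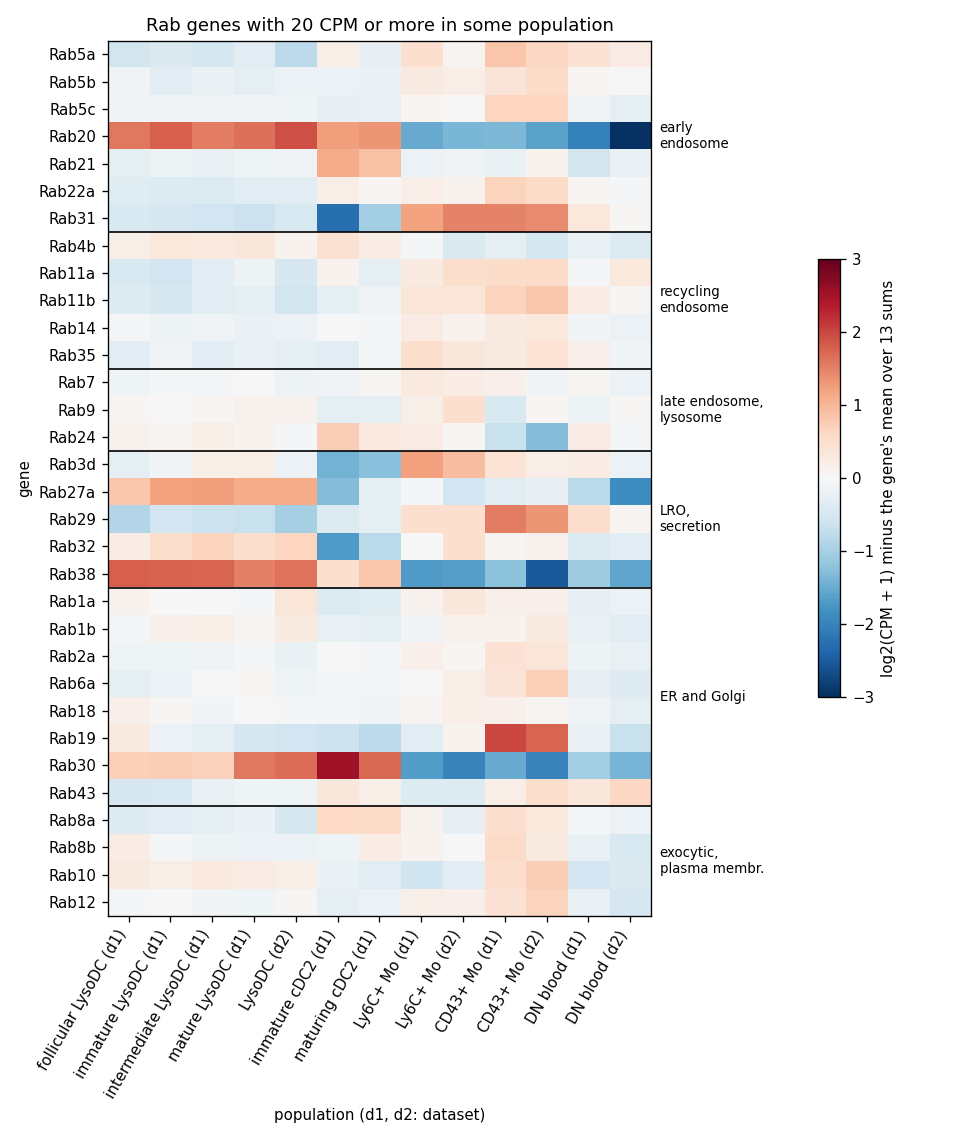
Levels of the 32 Rab genes with at least 20 CPM in some population. Rows are genes grouped by the compartment they are best known for, columns are the 13 population sums (d1 and d2 are the datasets), and colour is log2(CPM + 1) minus the gene's mean over the sums, cut at -3 and 3. Rab20, Rab38 and Rab27a are highest in the LysoDC columns, Rab30 in the cDC2 columns, Rab31 and Rab29 in the monocyte columns, and Rab19 in the CD43+ columns.

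Of the 15 members that could not be tested, none exceeded 4.28 CPM in any sum. They included Rab27b, the secretory paralogue of Rab27a (at most 0.104 CPM), and Rab4a, the recycling paralogue of Rab4b (at most 0.489 CPM). Rab37, known from secretory granules, was highest in immature cDC2s at 4.28 CPM, and Rab13, known from epithelial junctions, at 3.50 CPM in the same cells. The other paralogue of each pair was the higher in every sum: Rab27a was at 7.30 to 70.7 CPM and Rab4b at 58.2 to 116 CPM. In immature cDC2s the 5 epithelial markers summed to 399 CPM and the 4 plasmacytoid dendritic-cell markers to 398 CPM. In blood these lists summed to at most 15.9 and 20.1 CPM. They summed to 226 and 129 CPM in maturing cDC2s, and to 1.80 to 52.0 and 126 to 260 CPM in the LysoDC sums. The part of such cells' RNA in the Rab37 and Rab13 values was not tested.

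LysoDCs were first set against both kinds of blood monocyte. These are separate populations of different mice, and no passage of cells from blood to patch was followed. Here and below, rose and fell mean a higher or lower level than in the population compared. Rab20, Rab38 and Rab27a were higher in LysoDCs, and Rab31, Rab29 and Rab5a lower, in both datasets. Of the 44 tested members, 9 were higher in LysoDCs, 14 were lower and 21 did not pass (edgeR quasi-likelihood test, Benjamini-Hochberg adjustment over 11474 genes, threshold 0.05). Of all tested genes, 30.2% were higher and 27.8% lower, 58% in either direction, so the members were called about as often as other genes. Their median log2 fold change was -0.21, against 0.01 over all genes. Each p rests on 2 pools per population and a spread shared across genes and populations.

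Rab20, which is recruited to maturing phagosomes in macrophages, was high in the Peyer's patch cells and low in the blood. Its level was 117 CPM in follicular, 137 CPM in immature, 114 CPM in intermediate and 124 CPM in mature LysoDCs of dataset 1, and 151 CPM in LysoDCs of dataset 2. It was 12.98 and 14.4 CPM in Ly6C+ monocytes, 14.5 and 11.9 CPM in CD43+ monocytes, and 8.71 and 3.27 CPM in DN blood cells. Every LysoDC sum lay above every blood sum, with no overlap. The log2 fold change of LysoDCs over monocytes was 3.52 ± 0.30 (SE, adjusted p = 0.00016 by edgeR), and over DN blood cells 4.73 ± 0.39 (adjusted p = 0.000138). Immature and maturing cDC2s were also high, at 92.8 and 98.4 CPM.

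Counted per cell after thinning every cell to 2000 UMIs, Rab20 had a UMI in 19.9% to 24.8% of LysoDCs and in 0.827% to 2.70% of blood cells. Before thinning the shares were 63.2% to 78.0% and 1.87% to 7.62%, at median depths of 8999 to 14346 UMIs in LysoDCs and 2312 to 5920 UMIs in blood cells. Thinning kept 462 to 1050 cells of each LysoDC sum and 593 to 4839 of each blood sum, leaving out the shallower ones. Blood levels of Rab20 were 7.13% to 11.9% of the LysoDC level in dataset 1, where C1qa in the same sums was 5.15% to 6.05% of its LysoDC level. In dataset 2 they were 2.17% to 9.58%, beside 0.404% to 1.08% for C1qa. The part of stray LysoDC RNA in the low blood values was not tested.

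Rab38 and Rab32 are close relatives that deliver cargo to melanosomes and other lysosome-related organelles. Rab38 was at 26.5, 26.2, 25.6 and 21.7 CPM in follicular, immature, intermediate and mature LysoDCs and at 23.9 CPM in dataset 2. In blood it stayed between 0.385 and 2.80 CPM, so the groups did not overlap. Its log2 fold change was 4.26 ± 0.28 over monocytes (adjusted p = 4.6e-07, edgeR) and 3.58 ± 0.26 over DN blood cells (adjusted p = 1.08e-06). Blood levels of Rab38 were 5.82% to 11.1% of the LysoDC level in dataset 1 and 1.61% to 6.98% in dataset 2. Rab32 was more even. It was at 79.6 to 109 CPM in LysoDCs, 68.3 and 95.4 CPM in Ly6C+ monocytes, 72.5 and 74.7 CPM in CD43+ monocytes, and 51.0 and 54.4 CPM in DN blood cells. The LysoDC range thus overlapped that of Ly6C+ monocytes but lay above the DN values. The log2 fold change was 0.60 ± 0.13 over monocytes and 1.03 ± 0.15 over DN blood cells (adjusted p = 0.00268 and 0.000197, edgeR), and the first call was lost without the LysoDCs of dataset 1.

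Rab27a, which docks lysosome-related organelles and secretory granules at the plasma membrane, was at 51.5, 68.7, 70.7 and 63.8 CPM in the 4 LysoDC subsets of dataset 1 and at 64.4 CPM in dataset 2. It was at 27.9 and 19.2 CPM in Ly6C+ monocytes, 23.0 and 24.3 CPM in CD43+ monocytes, and 16.1 and 7.30 CPM in DN blood cells. All LysoDC sums exceeded all blood sums. Its log2 fold change was 1.65 ± 0.19 over monocytes and 2.64 ± 0.23 over DN blood cells (adjusted p = 5.18e-05 and 7.91e-06, edgeR). Rab3d, of secretory granules, went the other way against monocytes. Rab3d was at 13.5 to 19.2 CPM in LysoDCs, 40.2 and 32.3 CPM in Ly6C+ monocytes and 22.1 and 19.3 CPM in CD43+ monocytes, with a log2 fold change of -0.60 ± 0.14 (adjusted p = 0.00308, edgeR). Rab29, a Golgi and lysosome Rab that recruits the kinase Lrrk2, was at 10.9 to 14.9 CPM in LysoDCs and 32.5 to 67.3 CPM in monocytes. No LysoDC sum of Rab29 reached a blood sum, and its log2 fold change was -1.67 ± 0.16 over monocytes and -1.10 ± 0.17 over DN blood cells (adjusted p = 5.68e-06 and 0.000226, edgeR). Of the 8 tested members of lysosome-related organelles and secretion, 3 rose in LysoDCs over monocytes and 2 fell. Of all tested genes, 30.2% were higher and 27.8% lower, and no difference of the group from them was tested.

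**Figure D2:**
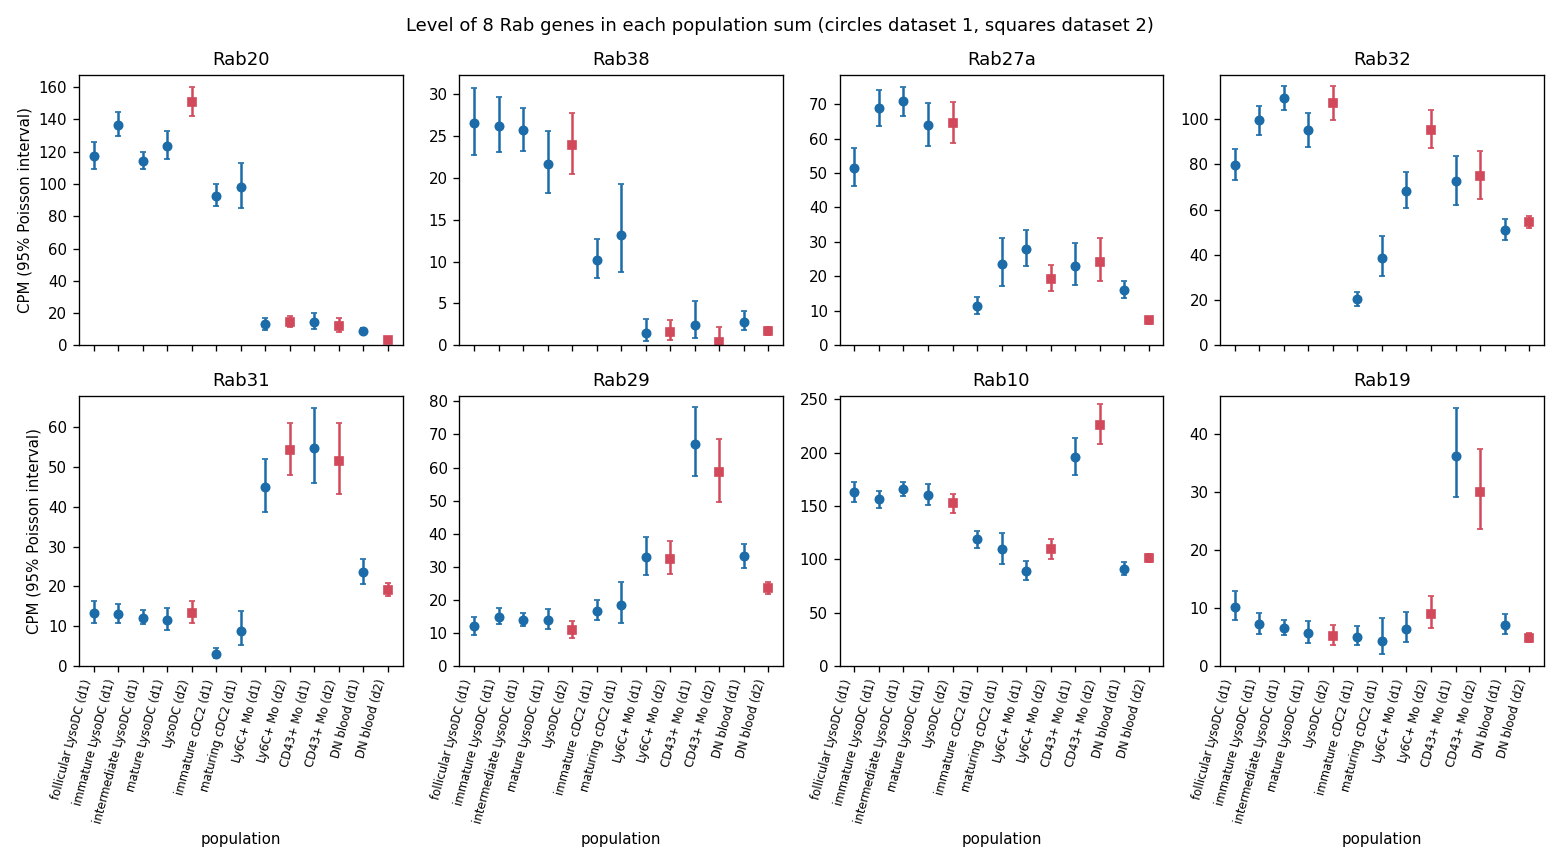
CPM of 8 Rab genes (vertical axes, each starting at 0) in the 13 population sums (horizontal axis), with exact 95% Poisson intervals that cover counting error only. Circles are dataset 1 and squares dataset 2. Rab20, Rab38 and Rab27a are highest in LysoDCs, Rab31 and Rab29 in monocytes, and Rab19 and Rab10 in CD43+ monocytes.

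Of the 7 tested early-endosome members, 4 fell in LysoDCs against monocytes and 1, Rab20, rose. Of the 5 tested recycling members, 3 fell and 1 rose. Beside the 27.8% of all genes that were lower and 30.2% that were higher, these groups are small, and no difference from other genes was tested. Rab31, which works between the trans-Golgi network, endosomes and phagosomes, was at 11.6 to 13.4 CPM in LysoDCs. It was at 45.1 and 54.3 CPM in Ly6C+ monocytes, 54.8 and 51.6 CPM in CD43+ monocytes, and 23.6 and 19.2 CPM in DN blood cells. DN blood cells thus lay between LysoDCs and monocytes, with no overlap of the 3. The log2 fold change over monocytes was -1.81 ± 0.16 (adjusted p = 3.53e-06, edgeR). Rab5a, which drives fusion of early endosomes, was at 37.7 to 52.5 CPM in LysoDCs and 70.4 to 118 CPM in all blood sums. Its log2 fold change was -0.98 ± 0.12 over monocytes and -0.93 ± 0.13 over DN blood cells (adjusted p = 4.25e-05 and 0.000129, edgeR).

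The paralogues of Rab5a moved less. Rab5b was lower than in monocytes by a log2 fold change of -0.39 ± 0.12 (adjusted p = 0.0163, edgeR). That call was lost without the LysoDC sum of either dataset, without the CD43+ sum of dataset 2 and with no filter on low counts, and after thinning the log2 fold change was -0.20 (adjusted p = 0.357). Rab5c, the most abundant of the 3, was at 119 to 124 CPM in LysoDCs and 130 to 206 CPM in monocytes, and did not pass (-0.27 ± 0.11). Rab11a and Rab11b, of the slow recycling endosome, fell by 0.72 ± 0.15 and 0.84 ± 0.13 on the log2 scale against monocytes (adjusted p = 0.00178 and 0.000189, edgeR). Rab11a was at 41.8 to 55.9 CPM in LysoDCs and 75.5 to 94.4 CPM in monocytes. Rab11b was at 48.2 to 57.5 CPM in LysoDCs and 92.1 to 126 CPM in monocytes. Rab4b, of the fast recycling route, was the member of that group that rose, at 91.3 to 107 CPM in LysoDCs against 58.2 to 80.6 CPM in monocytes (log2 fold change 0.72 ± 0.11, adjusted p = 0.000175). Rab22a and Rab35 fell by 0.58 ± 0.12 and 0.48 ± 0.12, the latter not past the threshold without the LysoDCs of dataset 2.

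Of the 5 tested late-endosome and lysosome members, 1 rose over monocytes and 1 fell, beside 30.2% and 27.8% of all tested genes. Rab7, which controls fusion of late endosomes with lysosomes, was at 118 to 129 CPM in LysoDCs, 161 and 151 CPM in Ly6C+ monocytes, 146 and 123 CPM in CD43+ monocytes, and 135 and 116 CPM in DN blood cells. Its log2 fold change was -0.06 ± 0.11 over monocytes and 0.02 ± 0.13 over DN blood cells, and neither passed. Rab24, linked to autophagy, rose over monocytes by 0.65 ± 0.13 on the log2 scale (adjusted p = 0.00129, edgeR), at 57.3 to 66.7 CPM in LysoDCs. That range lay above CD43+ monocytes at 37.0 and 23.5 CPM but overlapped Ly6C+ monocytes at 70.3 and 60.4 CPM. Rab7b, a late-endosome paralogue of Rab7, was at 13.2 and 14.2 CPM in Ly6C+ monocytes, 3.22 and 6.55 CPM in CD43+ monocytes and 5.91 and 4.20 CPM in DN blood cells. In LysoDCs and cDC2s Rab7b was at most 0.300 CPM, with no UMI in 4 of those 7 sums, and its lower level in LysoDCs passed against monocytes and DN blood cells (adjusted p = 1.86e-06 and 4.56e-06, edgeR). Rab36, grouped here with the Golgi members and known to bind the Rab7 effector Rilp, was at 10.3 and 8.66 CPM in Ly6C+ monocytes and at most 2.82 CPM in every other sum.

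Of the 12 tested ER and Golgi members, 3 rose in LysoDCs over monocytes and 3 fell, beside 30.2% and 27.8% of all tested genes. Rab30, a Golgi Rab, was at 5.46 to 11.9 CPM in LysoDCs and at most 0.933 CPM in blood, a low but non-overlapping level (adjusted p = 1.24e-05 over monocytes and 2.49e-05 over DN blood cells, edgeR). Among carriers between ER and Golgi, Rab1a was at 73.0 to 96.6 CPM, Rab1b at 77.6 to 96.1 CPM and Rab2a at 151 to 169 CPM in LysoDCs, and none of these passed against monocytes. Over DN blood cells Rab1a rose by 0.47 ± 0.13 and Rab1b by 0.53 ± 0.13 (adjusted p = 0.00954 and 0.00521, edgeR), calls that were lost without some single sums and, for Rab1a, with no dataset block. Against DN blood cells, 11 members were higher in LysoDCs, 10 were lower and 23 did not pass, beside 26.3%, 26.9% and 53.2% of all genes higher, lower and in either direction. The members' median there was -0.01, beside -0.03 for all genes. Rab10, which carries TLR4 and other cargo to the surface, rose over DN blood cells by 0.78 ± 0.15 on the log2 scale (adjusted p = 0.00145), at 152 to 166 CPM in LysoDCs against 91.3 and 101 CPM. Rab43, a Golgi Rab known for a part in antigen cross-presentation, fell by 0.65 ± 0.13, at 67.0 to 85.3 CPM against 119 and 144 CPM (adjusted p = 0.00171). Rab11a and Rab11b fell by 0.51 ± 0.17 and 0.53 ± 0.14, calls that were lost without some single sums and, for Rab11a, also under DESeq2, after thinning and with no dataset block (adjusted p = 0.054, 0.118 and 0.0574). LysoDCs set against monocytes and against DN blood cells share the LysoDC sums, so both rest on the same LysoDC values.

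**Figure D3:**
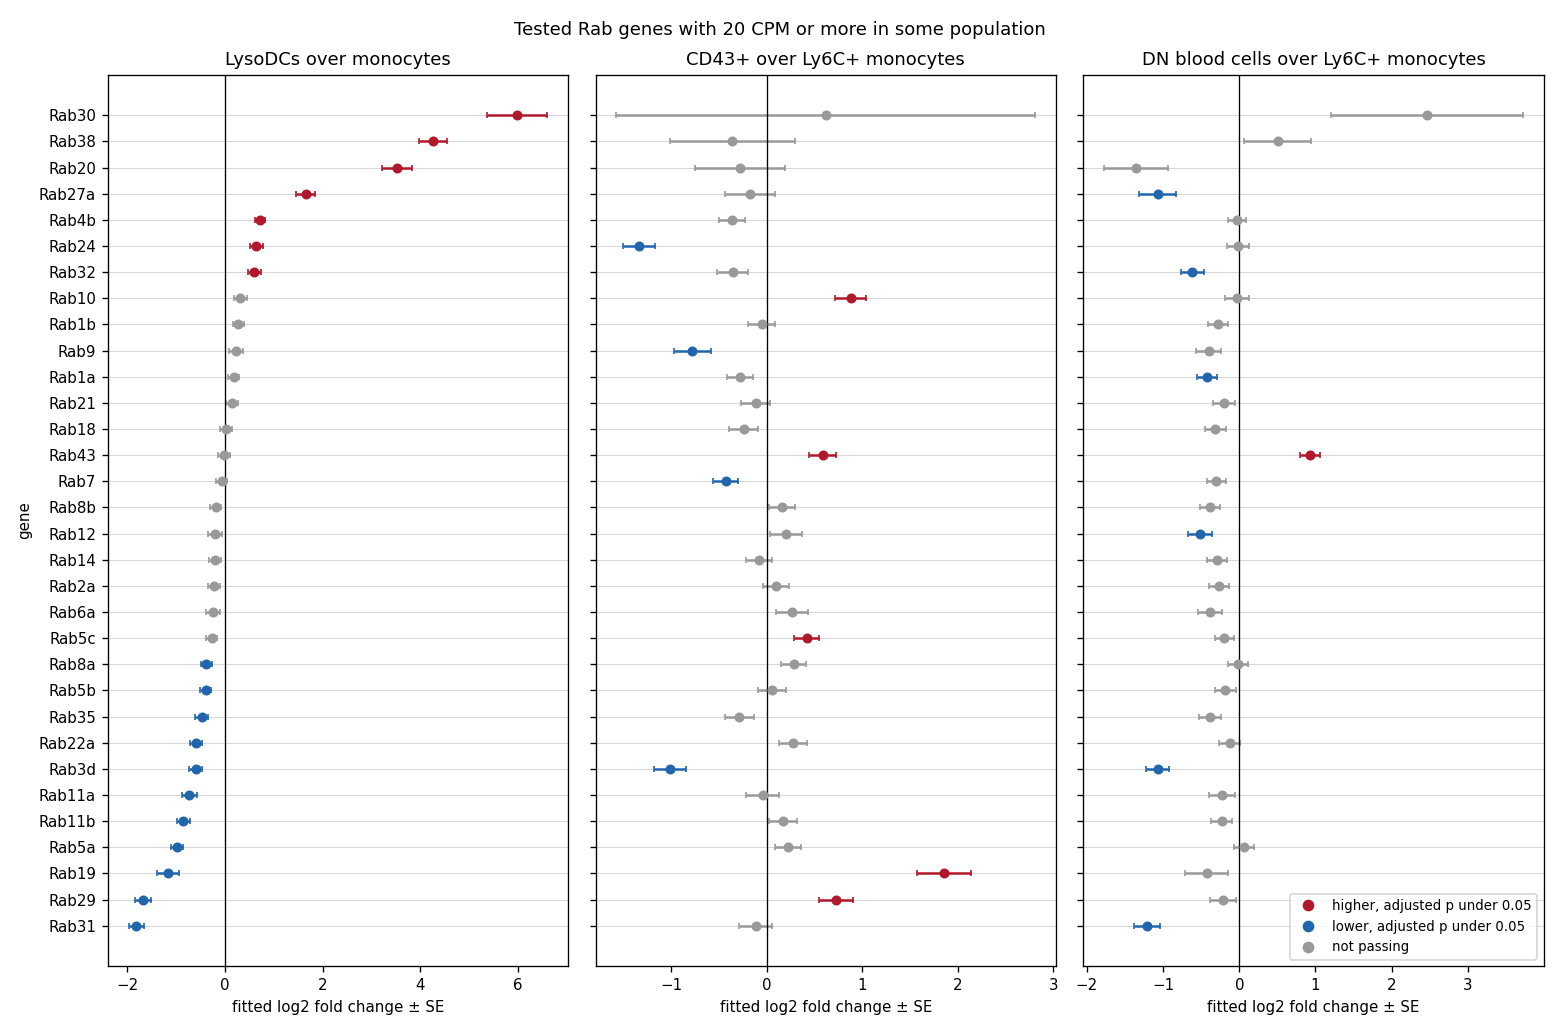
Fitted log2 fold change with its SE (horizontal axes) for the 32 Rab genes with at least 20 CPM in some population (vertical axis, ordered by the left panel) in 3 comparisons. Red is higher, blue lower and grey not passing at an adjusted p of 0.05. Rab30, Rab38, Rab20 and Rab27a head the LysoDC panel, Rab19 the CD43+ panel, and Rab43 is the red point of the DN panel.

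The E-box CACGTG is the core of sites bound by the MiT/TFE factors, which control lysosome genes. It was searched in the 250 bases before the RefSeq start on GRCm38.p6, where its reverse complement is the same word. It was found in 5 of the 48 members with a promoter entry, Rab20, Rab21, Rab23, Rab27a and Rab5a, and in 6.86% of 27025 genes. Rab20, Rab27a and Rab5a are shown because they differed between LysoDCs and both kinds of blood cell in the tests above, the first pair upward and Rab5a downward. Each stretch is 30 bases on the gene's strand, with the E-box in capitals.
Rab20, chr8:11478669-11478698, minus strand: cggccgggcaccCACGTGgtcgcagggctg
Rab27a, chr9:73063898-73063927, plus strand: cttgCACGTGctcctccgtctgtctgaacc
Rab5a, chr17:53478987-53479016, plus strand: aattggagaagaCACGTGacgcaaccccac
Rab5a, chr17:53479127-53479156, plus strand: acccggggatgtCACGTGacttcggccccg
The E-box began 46 bases before the RefSeq start of Rab20, 246 before that of Rab27a, and 235 and 95 before that of Rab5a. In GENCODE vM21 the Rab20 stretch lies in an exon of a longer model, the Rab27a stretch in an intron, and both Rab5a stretches outside the gene. The same word stood before members that were higher and a member that was lower in LysoDCs. The members shown were picked because they differed, so this does not test whether the word goes with either direction. A match is a run of letters and says nothing of binding. A different word, TCATGTG, which does not contain CACGTG, was searched on both strands. It was in 3 of 48 members (Rab15, Rab28, Rab34) and 3.72% of genes. The word GAGGAAGT, a form of the site of the myeloid factor PU.1, was in 2 of 48 (Rab2b, Rab32) and 2.79% of genes.

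Among LysoDC subsets of dataset 1, which had 1 sum each and hence no test, Rab levels were close. None of the 27 members with at least 20 CPM differed by 2-fold or more between the highest and lowest subset, beside 4.06% of the 5416 genes at that level. The median span was 1.14-fold for members and 1.20-fold for all genes. The widest was Rab32, at 109 CPM in intermediate and 79.6 CPM in follicular LysoDCs (1.37-fold, 95% interval 1.25 to 1.52, counting error only). Rab27a followed, at 70.7 and 51.5 CPM in the same subsets (1.37-fold, 1.21 to 1.55). Rab30, below the level rule, was at 11.0 CPM in mature and 5.46 CPM in intermediate LysoDCs (2.01-fold, 1.45 to 2.80).

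Immature cDC2s had less Rab27a, Rab32 and Rab38 than immature LysoDCs, and more Rab21 and Rab30, each with 1 sum and no test. Rab27a was at 11.3 CPM in cDC2s and 68.7 CPM in LysoDCs, 6.09-fold lower (4.86 to 7.70). Rab32 was at 20.4 against 99.4 CPM, 4.88-fold lower (4.12 to 5.82), and Rab38 at 10.1 against 26.2 CPM, 2.59-fold lower (2.001 to 3.38). The early-endosome member Rab21, known for integrin traffic, was at 174 against 71.7 CPM, 2.43-fold higher (2.22 to 2.67), and Rab30 at 22.4 against 5.64 CPM, 3.98-fold higher (2.92 to 5.51). These were the 5 of 28 members at 20 CPM or more that passed 2-fold, beside 23.5% of 5867 genes at that level (12.7% higher and 10.7% lower in cDC2s). Rab8a, an exocytic Rab, was just inside that bound, at 216 against 112 CPM (1.92-fold). After thinning, Rab21 had a UMI in 27.7% of immature cDC2s (66.1% before thinning) and in 13.3% of immature LysoDCs (59.0% before), which had median depths of 7370 and 13712.5 UMIs. Rab31 was lowest of all sums in immature cDC2s, at 3.11 CPM, but below the level rule in both groups.

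**Figure D4:**
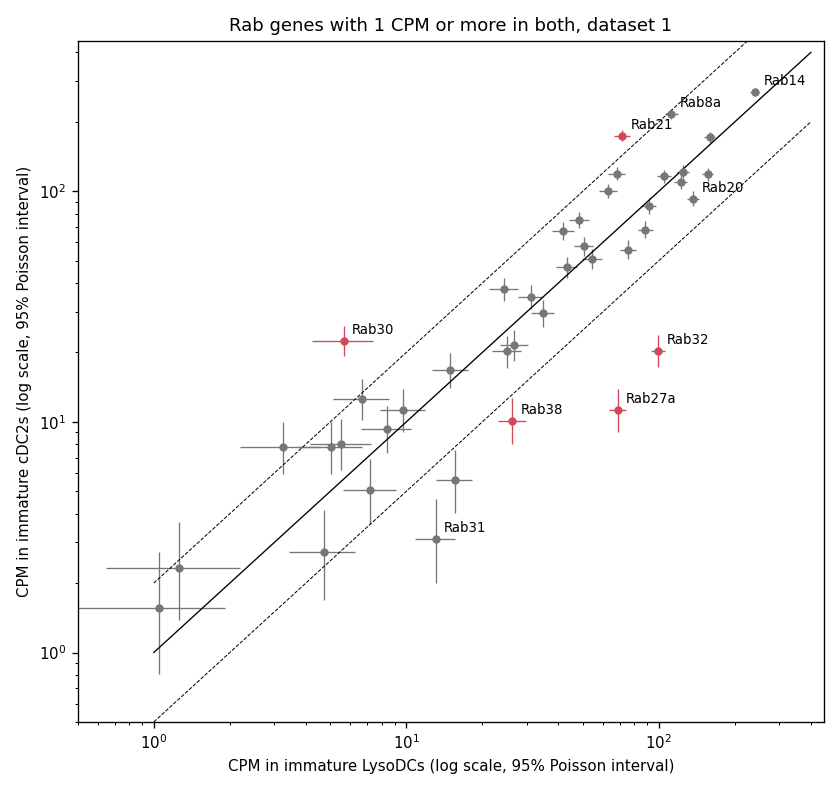
CPM of Rab genes with at least 1 CPM in both immature LysoDCs (horizontal log axis) and immature cDC2s (vertical log axis) of dataset 1, with exact 95% Poisson intervals. The solid line marks equal levels, the dashed lines 2-fold, and red the 5 members past 2-fold with at least 20 CPM in the higher population. Rab27a, Rab32 and Rab38 lie below the lower dashed line and Rab21 and Rab30 above the upper one.

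Maturing cDC2s were close to immature cDC2s. Of 27 members at that level, 1 passed 2-fold, beside 2.4% of 5580 genes (1.63% higher and 0.771% lower in maturing cells). This was Rab27a, at 23.5 against 11.3 CPM (2.08-fold, 1.43 to 2.99). Rab32 was at 38.7 against 20.4 CPM (1.90-fold, 1.43 to 2.50). The 8 LysoDC markers, none at 0, summed to 15684 CPM in maturing and 10474 CPM in immature cDC2s, beside 58170 to 79106 CPM in the LysoDC subsets. That sum is not particular to LysoDCs, since it was 45286 and 37970 CPM in Ly6C+ monocytes of datasets 1 and 2. C1qa was at 1649 and 326 CPM in maturing and immature cDC2s. The part of LysoDC RNA in the Rab27a and Rab32 values was not tested.

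Within the blood, CD43+ monocytes were set against Ly6C+ monocytes. Rab19 and Rab10 rose in CD43+ cells and Rab24 and Rab3d fell, with 6 members higher, 7 lower and 31 not passing, beside 14.4%, 15.3% and 29.7% of all genes higher, lower and in either direction. The median of the members was -0.05 (-0.04 without Rab44, which was at 0 in both CD43+ sums), beside 0.01 for all genes. Rab19, a Golgi-associated Rab, was at 36.2 and 30.0 CPM in CD43+ monocytes and at most 10.2 CPM in the other 11 sums. Its log2 fold change was 1.85 ± 0.28 (adjusted p = 0.000848, edgeR). After thinning, 7.08% and 5.38% of CD43+ cells had a Rab19 UMI, beside 0.797% to 2.88% elsewhere. Before thinning these shares were 11.7% and 7.56%, beside 2.68% to 9.16%. Rab10 was at 196 and 226 CPM against 89.2 and 109 CPM (0.88 ± 0.16, adjusted p = 0.00244). That CPM exceeded every LysoDC sum, but with TMM factors Rab10 was at 171 in CD43+ monocytes of dataset 1 and 179 in LysoDCs. Rab29 was at 67.3 and 58.5 CPM against 32.8 and 32.5 CPM (0.73 ± 0.17, adjusted p = 0.0103).

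On the falling side, 4 of 5 tested late-endosome and lysosome members were lower in CD43+ monocytes, beside 15.3% of all tested genes. Without the CD43+ sum of dataset 1 or the Ly6C+ sum of dataset 2, 1 of the 5, Rab24, still passed. The 4 were Rab24, at 37.0 and 23.5 against 70.3 and 60.4 CPM (-1.33 ± 0.17, adjusted p = 0.000242, edgeR), Rab9, which returns receptors from late endosomes to the Golgi (-0.78 ± 0.19, adjusted p = 0.0117), Rab7 (-0.43 ± 0.13, adjusted p = 0.0335) and Rab7b (-1.69 ± 0.36, adjusted p = 0.00546). Rab3d was at 22.1 and 19.3 against 40.2 and 32.3 CPM (-1.01 ± 0.17, adjusted p = 0.00143). Rab44, a large Rab known from mast cells, was at 3.92 and 2.89 CPM in Ly6C+ monocytes and listed at 0 in CD43+ monocytes. The 4 mast cell and basophil markers were at 0 in every sum.

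The count of 13 calls rested on single sums. It was 7 and 6 without the CD43+ sum of dataset 1 and of dataset 2, and 6 without the Ly6C+ sum of dataset 2. It was 8 with the dataset block left out. Without scaling factors it was 10 higher and 6 lower, with the median of all genes moved by 0.21. The calls for Rab29, Rab43, Rab5c, Rab7, Rab7b, Rab9 and Rab44 were among those lost under some of these settings, while Rab19, Rab10, Rab24 and Rab3d passed under all that were run.

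DN blood cells, the candidate LysoDC precursors of the study, had lower levels of several Rab genes than Ly6C+ monocytes. Of the 44 members, 2 were higher, 9 lower and 33 did not pass, beside 8.05%, 8.26% and 16.3% of all genes, and the members' median was -0.22 against 0.02. Rab31 fell by 1.21 ± 0.17 on the log2 scale (adjusted p = 0.00114, edgeR), at 23.6 and 19.2 CPM against 45.1 and 54.3 CPM. Rab3d fell by 1.07 ± 0.15 (adjusted p = 0.00113), at 19.5 and 14.7 against 40.2 and 32.3 CPM. Rab43 rose by 0.93 ± 0.14 (adjusted p = 0.00161), at 119 and 144 against 70.6 and 69.6 CPM, and was also higher in CD43+ than in Ly6C+ monocytes (0.58 ± 0.14, adjusted p = 0.0108). The smaller falls of Rab32 (-0.61 ± 0.16), Rab12 (-0.52 ± 0.16) and Rab1a (-0.43 ± 0.13) passed but were each lost under some settings. Without the DN sum of dataset 2 there were 5 calls in place of 11, without the Ly6C+ sum of dataset 1 there were 7, without that of dataset 2 there were 4, and with no dataset block there were 7.

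Rab20, Rab38 and Rab30, which were high in LysoDCs, did not pass as higher in DN blood cells over Ly6C+ monocytes. Rab20 was at 8.71 and 3.27 against 12.98 and 14.4 CPM (-1.35 ± 0.42), and Rab38 at 2.80 and 1.67 against 1.47 and 1.54 CPM (0.50 ± 0.43). The lower Rab20 level did not pass in the main fit (adjusted p = 0.0863, edgeR). It passed under DESeq2 (adjusted p = 0.0151) and with no filter on low counts (adjusted p = 2.35e-08, edgeR). Without the DN sum of dataset 1 the log2 fold change of Rab20 was -2.07. Rab30 was at 0.933 and 0.521 against 0.245 and 0 CPM. Rab27a was lower in DN blood cells (-1.07 ± 0.24, adjusted p = 0.0157, edgeR), a call lost with no dataset block, without either Ly6C+ sum and without the DN sum of dataset 2.

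Against CD43+ monocytes, 3 members were higher in DN blood cells, 12 lower and 29 did not pass, beside 17.9%, 16.8% and 34.7% of all genes. The members' median was -0.20 (-0.22 without Rab44), beside 0.02. Rab19 was at 7.05 and 4.86 against 36.2 and 30.0 CPM (-2.28 ± 0.26, adjusted p = 9.78e-05, edgeR). Rab10 fell by 0.90 ± 0.16, Rab29 by 0.94 ± 0.17 and Rab31 by 1.10 ± 0.17 (adjusted p = 0.00139, 0.0015 and 0.000708). Rab24 rose by 1.32 ± 0.16 (adjusted p = 0.000158), at 70.8 and 57.3 against 37.0 and 23.5 CPM. Without the CD43+ sum of dataset 2 or the DN sum of dataset 2 there were 7 calls in place of 15, and without scaling factors 3 higher and 20 lower, with the median of all genes moved by -0.23. The blood comparisons share their sums in pairs, so they are not independent of each other.

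The proteins that switch and read Rab GTPases were followed in a list of 123 exchange factors, GTPase-activating proteins, effectors and prenylation factors, of which 111 were tested. In LysoDCs over monocytes 37 rose and 29 fell, with a median log2 fold change of 0.00, beside 30.2% and 27.8% of all tested genes. Over DN blood cells 41 rose and 24 fell, beside 26.3% and 26.9%. Dennd3, the exchange factor of Rab12, was at 70.3 and 79.6 CPM in LysoDCs and 5.30 and 3.37 CPM in monocytes (log2 fold change 4.41 ± 0.22, adjusted p = 8.86e-08, edgeR), while Rab12 itself was at 23.1 to 25.9 CPM in LysoDCs and did not pass against monocytes. Rin3, an exchange factor for Rab5 and Rab31, was at 4.11 and 6.01 CPM in LysoDCs and 139 and 142 CPM in monocytes (-4.66 ± 0.19, adjusted p = 2.07e-08). Rin2, its relative, rose to 97.3 and 92.3 CPM from 50.0 and 35.2 CPM (1.37 ± 0.17, adjusted p = 8.96e-05). In this comparison Rin3, Rab31 and Rab5a were thus lower in LysoDCs and Rin2 was higher. In DN blood cells over Ly6C+ monocytes, where Rab31 fell, Rin3 did not pass (0.43 ± 0.16). Whether these genes vary together was not tested.

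For the lysosome-related organelle members, Myo5a, the motor that Rab27a engages on melanosomes, rose over monocytes (1.35 ± 0.12, adjusted p = 3.5e-06, edgeR), at 115 and 122 against 60.8 and 45.9 CPM. Unc13d, a Rab27a effector in granule release, fell (-1.48 ± 0.22, adjusted p = 0.000185). Hps1 and Hps4, which together form the exchange factor of Rab32 and Rab38, did not pass (0.28 ± 0.14 and 0.39 ± 0.16), and Ankrd27, an effector of that pair, rose by 0.92 ± 0.17 (adjusted p = 0.000683). Among Rab7 effectors, Osbpl1a rose (3.69 ± 0.26) and Plekhm1 fell (-0.73 ± 0.14). They are only some of the Rab7 effectors in the list and do not stand for that group.

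In CD43+ over Ly6C+ monocytes 27 of the 111 rose and 8 fell, beside 14.4% and 15.3% of all tested genes. Ric1, part of the exchange factor of Rab6, rose by 1.91 ± 0.21 (adjusted p = 0.000102, edgeR), Rab11fip1, an effector of Rab11, by 1.48 ± 0.16 (adjusted p = 9.41e-05), and Lrrk2, the kinase that Rab29 recruits, by 1.40 ± 0.25 (adjusted p = 0.00254). Lrrk2 was at 41.5 and 56.6 against 17.6 and 14.6 CPM, so it and Rab29 were both higher in CD43+ monocytes. The Rab29 call was lost without some single sums. Rab6a and Rab11a did not pass there (0.26 ± 0.17 and -0.04 ± 0.18). Lrrk2 was also higher in DN blood cells over Ly6C+ monocytes (0.89 ± 0.23, adjusted p = 0.0301, edgeR), where Rab29 did not pass as higher. In DN blood cells 11 rose and 6 fell over Ly6C+ monocytes, beside 8.05% and 8.26% of all tested genes. Over CD43+ monocytes 11 rose and 26 fell, beside 17.9% and 16.8%.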

How the data were processed

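The matrices hold UMI counts of genes and of hashtags for each barcode, deposited by the authors without normalization, per the file headers, which name Cell Ranger 6.0.1. The submitters' processing notes name Cell Ranger 2.0.0 and mm10. HTODemux in Seurat 5.3.0, run on either dataset alone at a positive quantile of 0.99, kept 9069 of 11878 and 8516 of 13111 barcodes as carrying 1 hashtag. Barcodes that it called as carrying several hashtags, 2038 and 4572, were removed as doublets. In dataset 2 this call gave 681 LysoDCs after the cell filters below. A call by the hashtag with at least 80% of a barcode's hashtag UMIs gave 2919 after the same filters. Whether the removed barcodes were doublets was not tested. A cell was used from 1000 UMIs and 500 genes up if no more than 10% of its UMIs were mitochondrial, leaving 7878 and 7470 cells, and 18 of these barcodes occur in both datasets. The 8 sums of LysoDCs and of each blood population per dataset were tested in edgeR 4.0.16 (TMM, filterByExpr, robust quasi-likelihood, two-sided) in R 4.3.3 with dataset as a block, since the labels say that each dataset is its own pools of mice. In the contrast with monocytes, the Ly6C+ and CD43+ coefficients had equal weight. Residual degrees of freedom were 3. The SE of a fitted log2 fold change was derived from the test, as its absolute value over the square root of the F statistic. The procedure was also run on simulated counts with the same spread for all genes, no dataset effect and a small set of changed genes. These settings differ from the data, so that run cannot show how reliable the calls here are. Intervals of single sums are exact Poisson, those of ratios exact conditional binomial (95%), and both cover counting error only.

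The members, role groups and lists were chosen with earlier results of these data known. Up to 6 members each way were named per comparison, by size of change among those past the threshold that moved the same way in either dataset and had 20 CPM in the higher population, or past 2-fold in comparisons without a test. Others named are low-level members, members of a described group, or were chosen after their values were seen. All 59 identifiers were matched to GENCODE vM21. Alternatives covered scaling, DESeq2 1.42.0, filters, hashtag calls, thinning, the block and single sums.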

Additional observations from a re-analysis of the deposited data

How the results depend on the processing

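Each dataset was 1 pool per population, and counts of calls moved with single sums. Leaving out 1 sum at a time gave 17 to 26 calls for LysoDCs against monocytes (23 in the fit reported), 15 to 24 against DN blood cells (21), 6 to 13 for CD43+ against Ly6C+ monocytes (13), and, for DN blood cells, 4 to 12 against Ly6C+ (11) and 7 to 15 against CD43+ monocytes (15). A population left with 1 sum was assumed to vary like the others. With no replicate block, Ly6C+ monocytes differed from CD43+ monocytes and DN blood cells in 8 and 7 members. CPM without TMM factors, chosen after seeing the data, gave 23 for DN blood cells against CD43+ monocytes, and shifted the median of all genes by -0.19, 0.21 and -0.23 for LysoDCs against monocytes, CD43+ against Ly6C+ and DN against CD43+. The cause of these moves was not tested. In the comparisons without a test, a hashtag call by 80% share left 3 members past 2-fold in immature cDC2s against LysoDCs (5 reported). That call kept only 38 immature cDC2s in place of 1009. Maturing against immature cDC2s gave 2 with TMM-scaled CPM and 0 with the background-scaled hashtag call, also chosen after seeing the data (1 reported). A floor of 10 CPM gave 1 among LysoDC subsets (0 reported). Of 45 named tested results, alternatives keeping all sums left 419 values on the same side of the threshold and 31 no longer past it, and leaving out sums 320 and 40, with 0 reversed. The 80% share was not run for the tested comparisons, because no CD43+ monocyte of dataset 1 reached it.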

Other observations

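HTODemux kept 681 LysoDCs of dataset 2. With the background-scaled hashtag call, chosen after seeing the data, the 4 LysoDC hashtags of that dataset marked 728, 773, 835 and 583 cells. Rab20 was at 139 to 153 CPM across these 4 splits, Rab38 at 21.5 to 23.8 CPM, Rab27a at 59.4 to 70.7 CPM and Rab32 at 104 to 112 CPM. The labels do not tie the splits to LysoDC subsets.

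Rab44, Rab36 and Rab7b were low-level members with their highest values in Ly6C+ monocytes. Rab44 was at 3.92 and 2.89 CPM there and at most 0.518 CPM elsewhere. The neutrophil markers summed to 75.5 and 61.7 CPM in Ly6C+ monocytes, with 4 of 6 at 0, and to at most 9.02 CPM elsewhere. Their part in the 3 values was not tested. Rab39, linked to autophagy, was highest in DN blood cells at 8.40 and 9.35 CPM, followed by immature cDC2s at 7.79 CPM.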
